A study of Mus musculus with 12 samples.

Results

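The imprinted growth network genes described here are 10 mouse genes: Meg3, Peg3, H19, Igf2, Igf2r, Mest, Plagl1, Grb10, Cdkn1c and Dlk1. They were taken by symbol, matched through the numeric gene identifier, and all 10 are listed in each count table. They are 10 of the 26301 genes counted by RNA sequencing (RNA-seq) and of the 15352 listed in any table of sequenced coprecipitated RNA (RIP-seq). The genes were chosen by their recovery with Thoc5 at passage 3 in the case of Meg3 and Peg3, whose reads there were in view when the list was drawn up; which values drew the others is not recorded. All ratios to input are therefore given as a description with no test.

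All libraries came from primary aortic smooth muscle cells (VSMC) of 6-week-old C57BL/6 mice. In RNA-seq, 2 shThoc5 libraries came from cells that received a short hairpin RNA (shRNA) against Thoc5, and 2 shNT libraries from cells that received a non-targeting hairpin. Passages 4 to 8 were used for both groups, with RNA taken 4 days after infection. In RIP-seq, cells with no treatment named, at passage 10 and at passage 3, each gave 1 Thoc5 immunoprecipitate, 1 Thoc2 immunoprecipitate and 1 input, which is RNA with no antibody selection. Another 2 libraries, from chromatin immunoprecipitation, were not analysed here. The labels do not state whether replicate libraries stem from separate mice or cultures, and a single hairpin against Thoc5 was used.

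Thoc2 and Thoc5 are subunits of THO, a nuclear complex that joins nascent RNA and hands it to the machinery that exports it from the nucleus. An imprinted gene is transcribed mainly from the copy inherited from a given parent. Many imprinted genes of the mouse set the rate of fetal growth, and a group of them is expressed together before birth and falls in most tissues afterwards. Igf2 and H19 are known to be low in the adult artery, and H19 was described as re-expressed in injured rat arteries.

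The members sit in a few imprinted domains and have known roles. On chromosome 7, Igf2 encodes a paternally expressed growth factor and its neighbour H19 a maternally expressed long non-coding RNA. Cdkn1c, also on chromosome 7, encodes the cyclin-dependent kinase inhibitor p57. Peg3, in another domain of that chromosome, encodes a paternally expressed zinc finger protein. Meg3 on chromosome 12 is a maternally expressed long non-coding RNA, and its neighbour Dlk1 encodes a transmembrane protein related to Notch ligands. Igf2r on chromosome 17 encodes the receptor that removes IGF2 to lysosomes, and Grb10 on chromosome 11 an adaptor that damps insulin and IGF receptor signalling. Plagl1 on chromosome 10 encodes a zinc finger transcription factor described as a regulator of this group in the mouse, and Mest on chromosome 6 a protein of the alpha/beta hydrolase family.

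The sequences below are from RefSeq (GRCm38.p6) and are shown for the transcripts on which the results turn. H19 is the host of a microRNA, and reads over its hairpin were counted as a row of their own. In the hairpin, at chr7:142577064-142577147 on the minus strand, capitals mark the mature arms, and in each mature arm they mark the seed, bases 2 to 8.
mir-675 hairpin: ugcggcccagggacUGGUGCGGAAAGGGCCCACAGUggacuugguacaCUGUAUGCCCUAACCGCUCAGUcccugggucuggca
mmu-miR-675-5p: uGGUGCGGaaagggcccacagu
mmu-miR-675-3p: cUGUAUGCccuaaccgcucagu
The arms have different seeds.

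Peg3 and Meg3 were the members with the highest mean log2 ratio to input over the 4 immunoprecipitates, and the 300 bases around their starts, 250 before and 50 after, are given next. For Peg3 (chr7:6730370-6730669, minus strand) capitals mark GGGGCCCC, a palindrome that the Plagl1 protein has been described to bind. For Meg3 (chr12:109540746-109541045, plus strand) they mark the TATA element TATAAA.
Peg3: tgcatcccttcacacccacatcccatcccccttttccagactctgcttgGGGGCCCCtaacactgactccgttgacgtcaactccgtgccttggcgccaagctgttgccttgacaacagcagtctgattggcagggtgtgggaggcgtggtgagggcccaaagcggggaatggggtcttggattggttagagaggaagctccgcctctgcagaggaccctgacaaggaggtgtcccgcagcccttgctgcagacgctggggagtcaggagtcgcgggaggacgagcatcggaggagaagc
Meg3: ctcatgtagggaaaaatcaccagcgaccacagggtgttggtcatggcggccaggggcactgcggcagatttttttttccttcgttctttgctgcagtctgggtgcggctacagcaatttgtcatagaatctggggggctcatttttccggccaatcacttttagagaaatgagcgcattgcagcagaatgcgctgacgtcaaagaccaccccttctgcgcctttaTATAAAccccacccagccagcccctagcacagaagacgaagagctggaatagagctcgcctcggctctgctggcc
RefSeq start windows were at hand for 8 of the 10 members, 15 windows in all; H19 and Cdkn1c had no entry. Searched on both strands, GGGGCCCC was in 1 of the 15 windows, that of Peg3, and in 1.08% of all 32851 windows. TATAAA was likewise in 1 of the 15, a start of Meg3, and in 13.6% of all windows. In that Meg3 window its reverse complement TTTATA overlaps it.

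Levels are given in CPM, the reads of a gene per 1000000 counted reads of its library. RNA-seq libraries held 15819207 to 21037732 counted reads. The passage 10 libraries held 9364965 (Thoc5), 16303503 (Thoc2) and 19038973 (input) reads, and the passage 3 libraries 5975866, 5396291 and 36336141. Ribosomal RNA took 7.33% of the reads with Thoc5 and 19.2% with Thoc2 at passage 3, and at most 1.76% of any other library. Thoc5 itself stood at 7.37 and 5.75 CPM in shThoc5 libraries, against 33.5 and 38.9 CPM in shNT libraries. Among marker lists, 6 of 7 smooth muscle genes were above 1 CPM in every RNA-seq library, while Myocd, which defines the lineage, stood at 0.143 to 0.544 CPM. It was not listed in RIP-seq.

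The first question was where these transcripts stood in cultured VSMC and how their levels in the passage 10 input compared with those in the passage 3 input. H19, Dlk1, Igf2 and Peg3 were far higher in the passage 10 input, and, scaled to library totals, Cdkn1c was the only member with a ratio below 1. The ratios carry exact 95% intervals for counting error only, since each passage had 1 input and no replicate check. A gene left out of a RIP-seq table had at most 10 reads over the immunoprecipitate and its input.

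H19 had 29091 reads (1528 CPM) in the passage 10 input, against 213 reads (5.86 CPM) in the passage 3 input. The ratio was 261-fold (228 to 300). Its domain partner Igf2 had 3872 reads (203 CPM) in the passage 10 input and 189 reads (5.20 CPM) in the passage 3 input, a ratio of 39.1-fold (33.8 to 45.5). Dlk1 had 2031 reads (107 CPM) at passage 10 and 43 reads (1.18 CPM) at passage 3, a ratio of 90.1-fold (66.7 to 125). Meg3, the neighbour of Dlk1, had 36.0 CPM in the passage 10 input and 24.9 CPM in the passage 3 input, 1.45-fold (1.31 to 1.598).

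Peg3 had 314 reads (16.5 CPM) in the passage 10 input and 0 reads in the passage 3 input. With the floor of 3 reads for a library at 0, it was at least 199.8-fold higher at passage 10. That bound rests on the 0 reads: Peg3 had reads in both passage 3 immunoprecipitates and in every RNA-seq library, and whether the 0 comes from the authors' counting was not tested. The rows of H19, Dlk1, Igf2 and Peg3 ranked 1, 5, 18 and 20 among the 13018 genes by the log2 ratio with 0.5 CPM added to both levels.

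Grb10 had 500.1 CPM in the passage 10 input and 96.2 CPM in the passage 3 input, 5.20-fold (4.998 to 5.40). Igf2r had 104 CPM and 47.3 CPM in the same order, 2.20-fold (2.06 to 2.34). Cdkn1c had 2.52 CPM (48 reads) at passage 10 and 2.83 CPM (103 reads) at passage 3, 0.889-fold (0.618 to 1.26), an interval that spans 1. Mest was at 2.09-fold (1.86 to 2.36) and Plagl1 at 1.84-fold (1.64 to 2.07).

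In all, 7 of the 10 members were at least 2-fold higher at passage 10, where 30.7% of all genes listed in both inputs were, and 0 were at least 2-fold lower, where 12.3% were. The median log2 ratio of the members was 1.75, beside 0.46 for all genes. Scaling to the median ratio of well-covered genes lowered every log2 ratio by 0.54. On that scale 5 members, H19, Dlk1, Igf2, Peg3 and Grb10, were at least 2-fold higher, where 16.4% of all genes were, and the log2 ratio of Meg3 was −0.01. Markers of other cell types moved as well. The summed level of 4 macrophage markers was 7.88 CPM in the passage 10 input and 113 CPM in the passage 3 input, with Ptprc and Adgre1 not listed at passage 10. That of 4 adventitial fibroblast markers was 84.0 CPM at passage 10 and 1148 CPM at passage 3, and that of 5 endothelial markers was 64.6 CPM and 190.2 CPM in the same order. Of the fibroblast markers Dcn was at 13.8 CPM at passage 10 and 1041 CPM at passage 3, and Pdgfra at 67.5 CPM and 71.4 CPM. Smooth muscle markers summed to 6346 CPM at passage 10 and 4477 CPM at passage 3, but did not move together. Acta2 was at 4549 CPM at passage 10 and 2091 CPM at passage 3, and Cnn1 and Smtn were also higher at passage 10. Tagln was at 1359 CPM and 2194 CPM in the same order, and Myh11 and Des were also lower at passage 10. The part of the cell mixture in the ratios between passages was not tested, and fewer cells of a type cannot be told apart from less RNA per cell in such bulk samples.

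**Figure D1:**
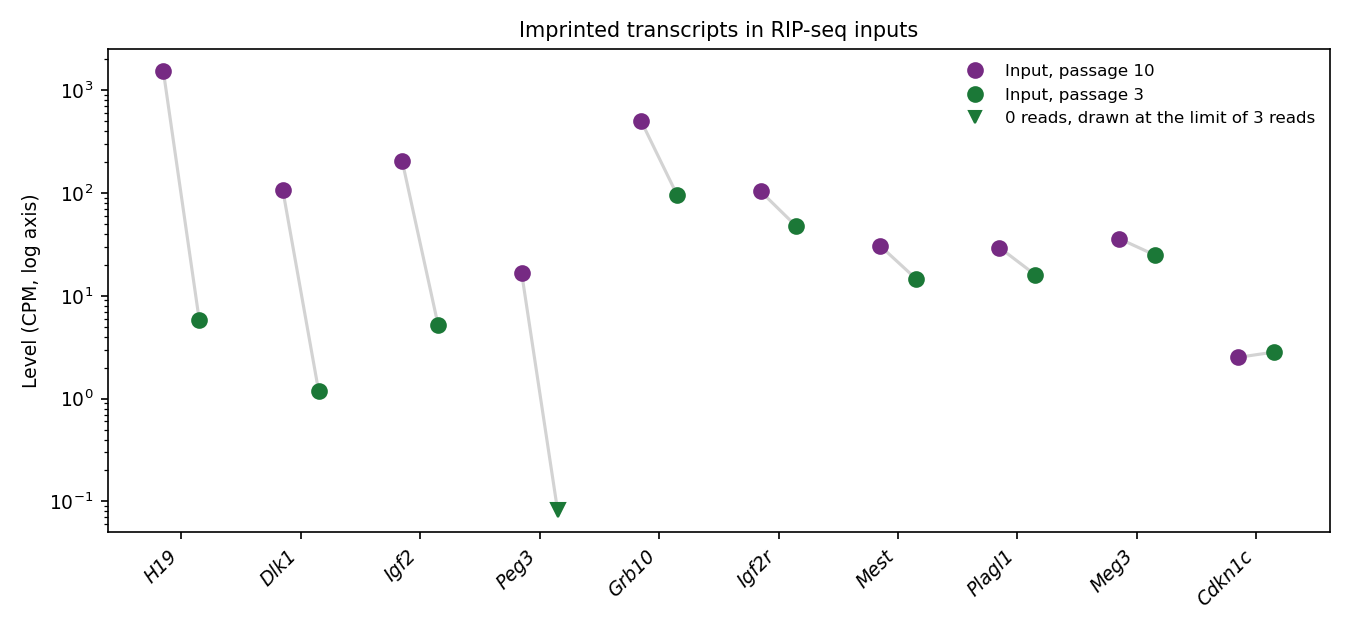
Level of each imprinted gene in the RIP-seq inputs at passage 10 (purple, left) and passage 3 (green, right), in CPM on a log axis, 1 library each with no error bar. H19 stands at 1528 CPM against 5.86 CPM, and Peg3, with 0 reads at passage 3, is drawn there at the level of 3 reads.

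The hairpin of miR-675 inside H19 was listed where its host was high. Its row held 2665 reads (140 CPM) in the passage 10 input, 1339 reads with Thoc2 and 944 with Thoc5, and it was not listed at passage 3. Those counts were 9.16%, 8.86% and 8.44% of the reads counted for H19 in the same libraries. Libraries of this kind do not take in RNA as short as a mature microRNA, so these reads stand for longer RNA over the hairpin and not for mature miR-675. The hairpin rows inside Meg3 (Mir770), Mest (Mir335) and Igf2 (Mir483) held 0 reads in every RNA-seq library and were not listed in RIP-seq, and that of Mir675 held 1 read over the 4 RNA-seq libraries.

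In the RNA-seq libraries, which form a table of their own, the same transcripts stood at other levels, and no test is possible between the tables. H19 was at 0.126 to 0.396 CPM over the 4 RNA-seq libraries and Dlk1 at 0 to 0.0541 CPM, both under the level in either input. Igf2 was at 0.238 to 0.594 CPM and Meg3 at 2.14 to 2.77 CPM, also under both inputs. Peg3, at 12.1 to 24.5 CPM, stood in the range of the passage 10 input and above that of passage 3. Igf2r, at 156 to 243 CPM, was above both inputs. The passages named by the labels, 4 to 8, lie between 3 and 10, yet the RNA-seq levels of H19, Igf2 and Dlk1 do not fall between those of the inputs.

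Levels can be set between genes only per length, and the authors' table gives a gene length for 5 members. Per kilobase, Grb10 was the highest of them, with 39.4 ± 7.29 CPM in shThoc5 and 36.2 ± 5.21 CPM in shNT libraries (mean ± SD, n = 2 each). Igf2r followed with 18.9 ± 1.92 CPM in shThoc5 and 24.2 ± 4.16 CPM in shNT. Peg3 (3.13 ± 0.80 CPM in shThoc5) and Mest (2.89 ± 2.16 CPM in shThoc5) did not differ beyond their spread. Cdkn1c was the lowest, with 1.16 ± 0.48 CPM in shThoc5 and 0.459 ± 0.0601 CPM in shNT.

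The next question was which imprinted transcripts were recovered with Thoc5 and Thoc2. Peg3, Meg3 and Igf2r were recovered above their input level, Peg3 in all 4 immunoprecipitates, and Igf2 below it in all 4. Enriched means a log2 ratio (0.5 CPM added to both levels) of 1 or more, given 10 or more reads and 1 CPM in the immunoprecipitate. Depleted means a log2 ratio of −1 or less, with the same minimum in the input. Each passage has a single input, which its 2 immunoprecipitates share.

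Meg3 had 449 reads (47.9 CPM) with Thoc5 and 1663 reads (102 CPM) with Thoc2 at passage 10, against 686 reads (36.0 CPM) in the input. At passage 3 it had 3604 reads (603 CPM) with Thoc5 and 645 reads (120 CPM) with Thoc2, against 906 reads (24.9 CPM) in the input. The ratios to input were 1.33-fold (1.18 to 1.501) for Thoc5 and 2.83-fold (2.59 to 3.10) for Thoc2 at passage 10, and 24.2-fold (22.5 to 26.0) and 4.79-fold (4.33 to 5.31) at passage 3. The library with Thoc5 at passage 3 was thus the highest of the 6, while the 2 inputs lay 1.45-fold apart. In that library, by which both were chosen, the log2 ratio of Meg3 ranked 4 and that of Peg3 ranked 3 among 14723 genes. These ranks follow from the choice and are no separate result, and that of Peg3 also rests on 0 input reads. The span of Meg3 overlaps those of Mir770 and Rtl1. The libraries were made with a kit that does not mark strand, so reads of overlapping genes cannot be told apart.

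Peg3 had 437 reads (46.7 CPM) with Thoc5 and 1767 reads (108 CPM) with Thoc2 at passage 10, against 314 reads (16.5 CPM) in the input. Those levels were 2.83-fold (2.44 to 3.28) and 6.57-fold (5.83 to 7.43) over input. At passage 3 it had 70 reads with Thoc5 and 41 reads with Thoc2, against 0 reads in an input of 36336141, which put it at least 142-fold higher with Thoc5 and at least 92.0-fold higher with Thoc2. These bounds rest on the same count of 0. The row of the antisense RNA Peg3os, whose span overlaps Peg3, held 18 reads with Thoc5, 19 with Thoc2 and 0 in that input, and its reads cannot be told apart from those of Peg3.

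Igf2r, the IGF2-clearing receptor, was recovered evenly. It was 1.67-fold (1.56 to 1.78) over input with Thoc5 and 2.07-fold (1.96 to 2.19) with Thoc2 at passage 10, and 2.51-fold (2.30 to 2.74) and 2.96-fold (2.72 to 3.23) at passage 3. Its level ran from 119 CPM with Thoc5 at passage 3 to 215 CPM with Thoc2 at passage 10, above both inputs (104 CPM at passage 10 and 47.3 CPM at passage 3). Its span overlaps that of the antisense RNA Airn.

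Igf2, which encodes the ligand of that receptor, lay below its input throughout. It had 815 reads (87.0 CPM) with Thoc5 and 942 reads (57.8 CPM) with Thoc2 at passage 10, against 3872 reads (203 CPM) in the input, 0.428-fold (0.396 to 0.462) and 0.284-fold (0.264 to 0.305). At passage 3 it had 1 read with Thoc5 and 4 reads with Thoc2, against 189 reads in the input, 0.0322-fold (0.00081 to 0.181) and 0.143-fold (0.0384 to 0.371). Its span overlaps Mir483 and Igf2os.

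H19, the neighbour of Igf2, showed no such constant direction. It was 0.782-fold (0.765 to 0.799) over input with Thoc5 and 0.607-fold (0.595 to 0.619) with Thoc2 at passage 10. At passage 3 it was at 0.485-fold (0.277 to 0.796) with Thoc5, from 17 reads, and at 1.45-fold (1.03 to 2.01) with Thoc2, from 46 reads. No ratio of H19 passed a threshold, but scaling to the median ratio put that with Thoc5 at passage 3 past the one for depletion, since that scaling lowers all log2 ratios there by 0.26. At passage 10 its levels were 1194 CPM with Thoc5 and 927 CPM with Thoc2, both under the 1528 CPM of the input.

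Of the remaining members, Plagl1 had a log2 ratio of 0.91 with Thoc5 and 0.997 with Thoc2 at passage 10, just under the threshold, and −0.02 and −0.33 at passage 3. Dlk1 lay near its input, 0.885-fold (0.817 to 0.958) with Thoc5 and 0.925-fold (0.865 to 0.988) with Thoc2 at passage 10. At passage 3 it had 10 and 3 reads, with intervals that span 1. Grb10 ran from 0.772-fold to 1.07-fold over the 4 immunoprecipitates. Mest was depleted with Thoc2, at 0.432-fold (0.368 to 0.506) at passage 10 and 0.392-fold (0.263 to 0.563) at passage 3, and at 0.560-fold and 0.776-fold with Thoc5; its span overlaps Mir335 and Copg2. Cdkn1c had 0 reads with Thoc5 at passage 3, against 103 in the input, at least 5.65-fold lower, and ratios of 0.511 to 0.678 in the other 3.

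The count of members enriched at passage 10 was 1 of 10 with Thoc5 and 3 of 10 with Thoc2. Of all listed genes 5.66% and 11.5% were. At passage 3 it was 3 of 10 with each antibody, where 20.8% (Thoc5) and 16.1% (Thoc2) of all listed genes were. Those 3 were Meg3, Peg3 and Igf2r, and Meg3 and Peg3 were chosen by their recovery with Thoc5 there. The count with Thoc5 at passage 3 is thus partly fixed by the choice, and the count with Thoc2 shares its input. Members depleted numbered 1 with Thoc5 and 2 with Thoc2 at passage 10, where 4.39% and 6.88% of all genes were. At passage 3 they numbered 2 with each, where 11.5% and 19.5% were. The median log2 ratios of the members were −0.04 (Thoc5) and −0.06 (Thoc2) at passage 10 and −0.14 and −0.35 at passage 3, beside 0.02, −0.03, 0.14 and −0.17 for all genes in the same order. The medians of the members were below those of all genes in each of the 4, with Meg3, Peg3 and Igf2r above 0 and Igf2, Mest and Cdkn1c below 0 throughout. For Cdkn1c the interval spanned no difference from input with Thoc2 at passage 3 and with Thoc5 at passage 10. By the authors' deposited ratio, whose signals are not scaled to each library's total, Igf2r (0.413 with Thoc5 and 0.440 with Thoc2) and Meg3 with Thoc2 (0.712) lay under 1 at passage 3, and so did Igf2r (0.821) and Meg3 (0.655) with Thoc5 at passage 10. Meg3 with Thoc2 at passage 3 was nonetheless among the authors' selected genes. Enrichment in all 4 immunoprecipitates, as for Peg3, was met by 3.45% of the 12727 genes listed in all 4 tables. Enrichment in at least 3, which takes in Meg3 and Igf2r, was met by 8.58%. For Peg3 and Meg3 this includes the library by which they were chosen. Depletion in all 4, as for Igf2, was met by 2.11%.

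**Figure D2:**
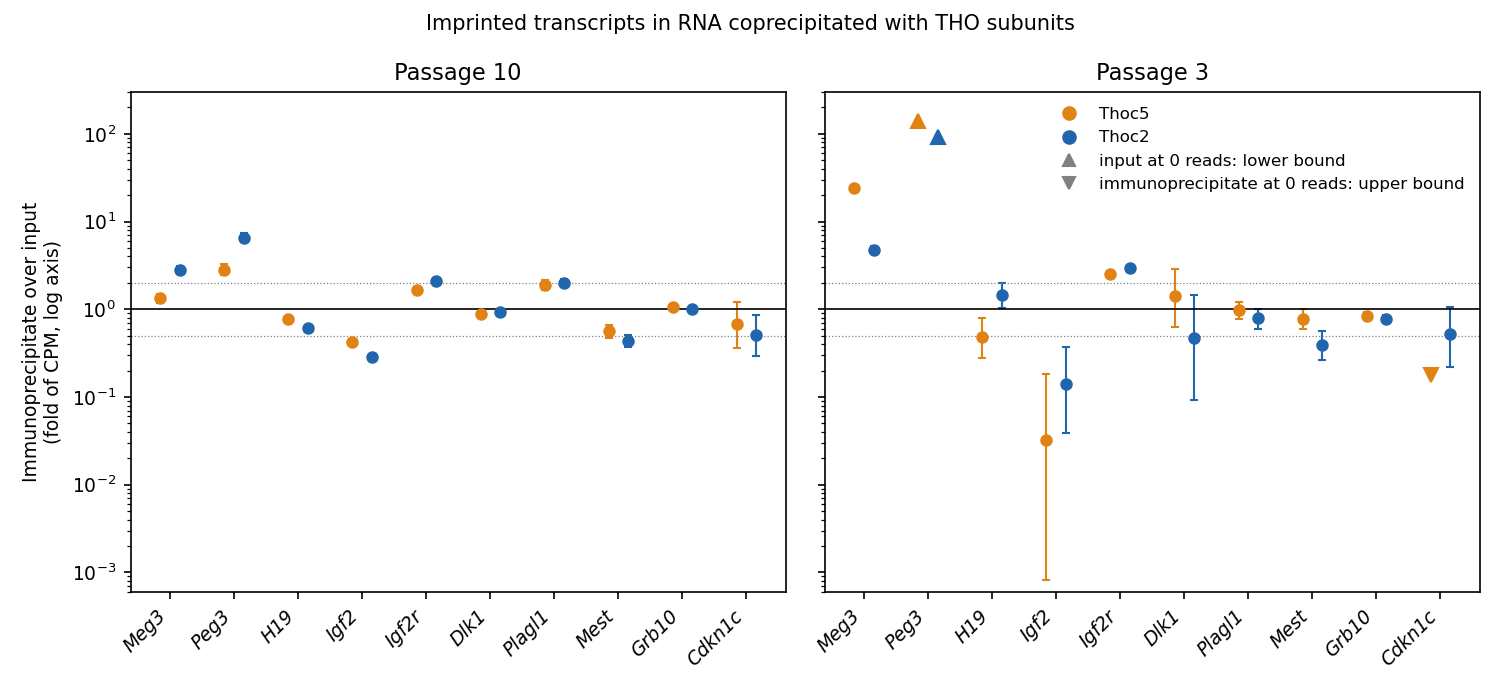
Fold of immunoprecipitate over input CPM on a log axis for each imprinted gene at passage 10 (left) and passage 3 (right), with Thoc5 in orange and Thoc2 in blue. Bars are exact 95% counting intervals from 1 library each. Triangles are ratios with 3 reads in place of 0 where a library had 0 reads. Dotted lines mark 2-fold up and down. Peg3 lies above 2-fold in all 4, Igf2 below 0.5-fold in all 4, and Meg3 with Thoc5 at 24.2-fold at passage 3 and 1.33-fold at passage 10.

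The 2 antibodies did not give the same order. At passage 10 the level with Thoc5 over that with Thoc2 was 0.470-fold (0.423 to 0.522) for Meg3, 0.431-fold (0.387 to 0.478) for Peg3 and 1.29-fold (1.26 to 1.32) for H19. At passage 3 it was 5.05-fold (4.64 to 5.50) for Meg3, 1.54-fold (1.03 to 2.33) for Peg3 and 0.334-fold (0.179 to 0.593) for H19. The values of Meg3 and Peg3 there take in the library by which they were chosen. At passage 10, 3.48% of 13177 genes were at least 2-fold lower with Thoc5 and 1.09% at least 2-fold higher. At passage 3, 5.36% of 14511 genes were at least 2-fold lower and 12.8% at least 2-fold higher. Scaling to the median ratio lowered the log2 values by 0.31 at passage 3 and kept those 6 directions, but the interval of Peg3 at passage 3 then spanned 1 (1.24-fold, 0.834 to 1.88). It left the log2 ratio of Meg3 at 2.02 there, beside 2.33. The higher ribosomal RNA share with Thoc2 at passage 3 also lowers the CPM of other genes, and without ribosomal RNA in the denominator the log2 ratio of Meg3 was 2.13.

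Ratios to input moved with gene length over all genes. The rank correlation (Spearman's rho) across genes was 0.578 (Thoc5) and 0.611 (Thoc2) at passage 10 and 0.408 and 0.557 at passage 3, over 11790 to 12088 genes that share the same 2 inputs and are not independent. Of genes of at least 6000 bases, 24.9% (Thoc5) and 49.3% (Thoc2) were enriched at passage 10, and 46.5% and 58.3% at passage 3. Both enriched members that have a length in the authors' table are long, Igf2r at 8929 bases and Peg3 at 6624 bases. Mest, depleted with Thoc2, has 2543 bases, and Cdkn1c, depleted only with Thoc5 at passage 3, has 1942 bases. Genes from 2000 to under 4000 bases had a median log2 ratio with Thoc2 of 0.01 at passage 10 and −0.10 at passage 3. Mest had −1.18 and −1.28. Genes under 2000 bases had a median of −0.35 with Thoc5 at passage 3, beside −2.74 for Cdkn1c from 0 reads. Grb10, with 5158 bases, lay near or below its input. The median log2 ratio of genes of at least 6000 bases was 0.63 (Thoc5) and 0.99 (Thoc2) at passage 10, beside 0.74 and 1.05 for Igf2r and 1.47 and 2.68 for Peg3. At passage 3 that median was 0.87 (Thoc5) and 1.25 (Thoc2), beside 1.32 and 1.56 for Igf2r. The part of length in the members' ratios was not tested, and Meg3 and Igf2 have no length in that table.

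**Figure D3:**
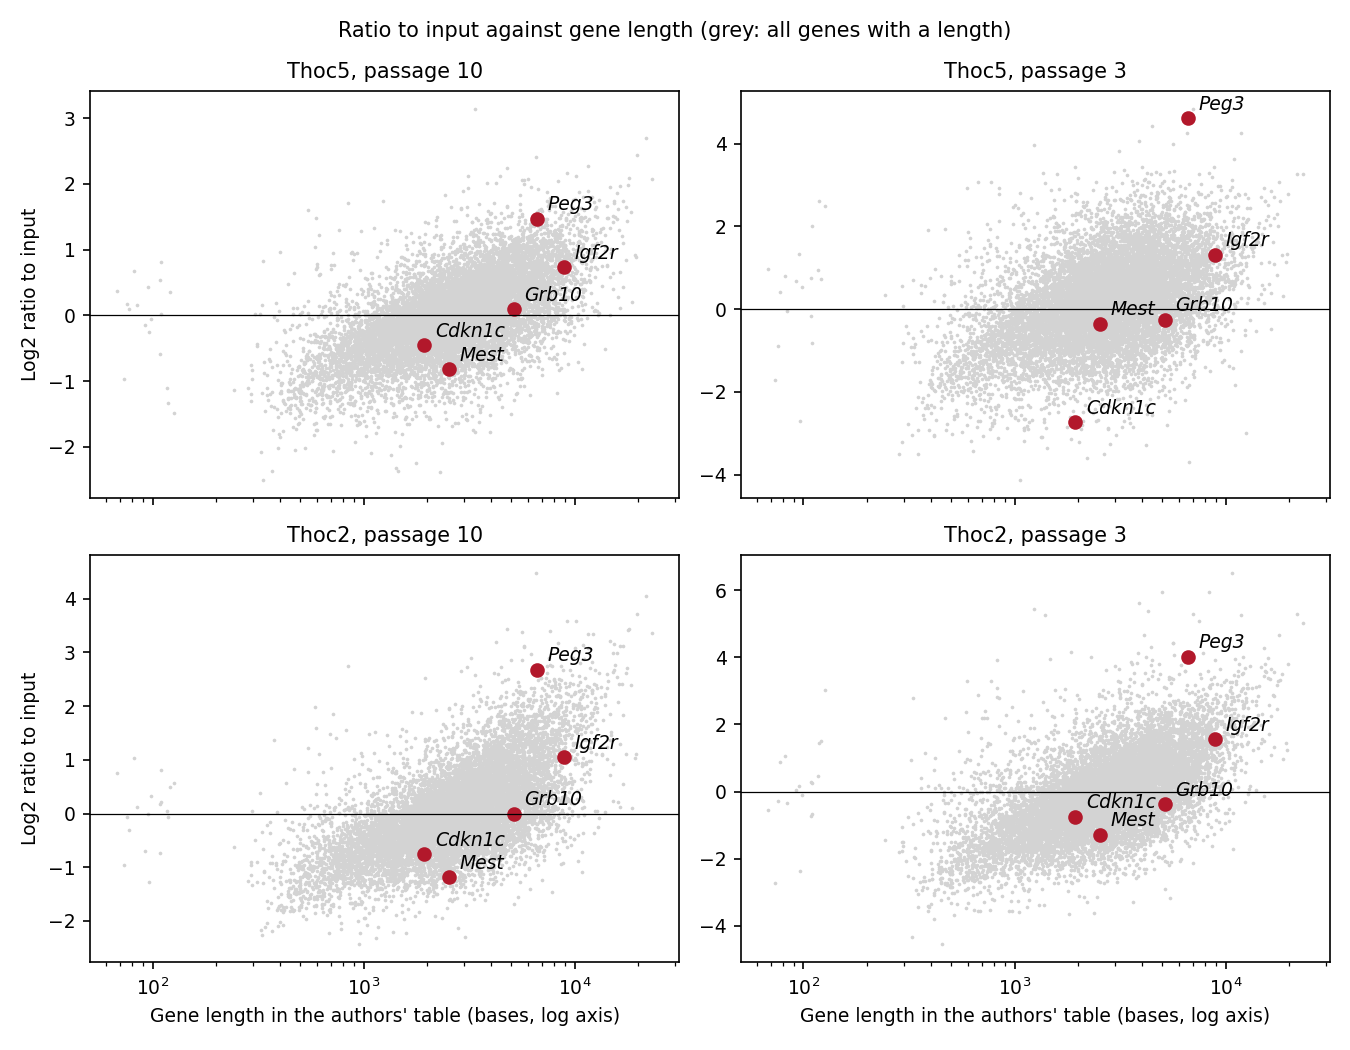
Log2 ratio to input (0.5 CPM added) against gene length in bases on a log axis, for all genes with a length in the authors' table (grey) and the 5 imprinted genes with one (red), with Thoc5 above Thoc2 and passage 10 left of passage 3. Igf2r lies within the cloud of long genes and Peg3 above most of it.

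Genes with the most similar 4 ratios were sought among 7631 genes with at least 50 reads in each immunoprecipitate, by Euclidean distance over the log2 ratios. Igf2r had near neighbours, Wdr35, Asap1 and Ncoa6, at distances of 0.0776 to 0.103. Grb10 was as close to Adipor2, Zfx and Capn2, at 0.0916 to 0.130. The nearest genes to Plagl1 were Magee1, Lemd3 and Irf2bpl, at 0.394 to 0.464. The nearest genes to Meg3, Ccnl2, Ogt and Col5a3, lay farther off, at 1.62 to 1.69. That distance takes in the ratio with Thoc5 at passage 3, by which Meg3 was chosen. On the log2 scale it was 4.57 for Meg3, beside 3.08, 3.32 and 2.97 for these genes in the same order. The remaining members, Peg3 among them, had under 50 reads in an immunoprecipitate and were not searched.

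The last question was whether silencing of Thoc5 altered these transcripts. No member passed the threshold in the fits that left the replicate number out, and a fit that used it is given in a later section. The edgeR quasi-likelihood test with Benjamini-Hochberg adjustment called 0 of the 8 members tested and 0% of all 13569 genes, with 651 genes (4.80%) and 2 of the members at an unadjusted p under 0.05. DESeq2 called 48 of 10387 genes (0.462%) and 0 of the 4 members to which it gave an adjusted p (Peg3, Igf2r, Mest and Grb10), and limma-voom called 0 genes. H19 and Dlk1 were too low to be tested. With 2 libraries a group, an exact permutation test of a single gene cannot give a two-sided p below 0.333. Thoc5 itself had a log2 fold change of −2.51 (SE 0.208) with an adjusted p of 0.499 in edgeR and 6.56e-15 in DESeq2.

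Plagl1 had 3.81 and 3.79 CPM in shThoc5 libraries (77 and 60 reads), against 1.68 and 1.66 CPM in shNT libraries (31 and 35 reads). Both silenced libraries lay above both controls. The replicates of a group were nearly equal, but with 31 to 77 reads a library that closeness is no measure of precision. The log2 fold change was 1.13 (SE 0.307), with an unadjusted p of 0.0119 and an adjusted p of 0.9995 in edgeR. DESeq2 gave no adjusted p for it.

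Cdkn1c had 1.58 and 2.91 CPM in shThoc5 libraries (32 and 46 reads), against 0.973 and 0.808 CPM in shNT libraries (18 and 17 reads). The groups did not overlap, and the silenced libraries were farther apart than the controls. Its log2 fold change was 1.27 (SE 0.460; edgeR adjusted p = 0.9995), and in the authors' deposited table it was 1.19 with a p of 0.0422 and an adjusted p of 0.9999.

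Igf2r had 156 and 180 CPM in shThoc5 libraries, against 190.1 and 243 CPM in shNT libraries. It was lower in both silenced libraries, by a log2 fold change of −0.41 (SE 0.192; edgeR adjusted p = 0.9995). Its ligand Igf2 had 0.594 and 0.569 CPM in shThoc5 libraries, against 0.487 and 0.238 CPM in shNT libraries, from 12, 9, 9 and 5 reads in that order. The log2 fold change of Igf2 was 0.64 (SE 0.586), close to its own error.

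The other members overlapped between groups. Meg3 had 2.77 and 2.34 CPM in shThoc5 and 2.49 and 2.14 CPM in shNT libraries, a log2 fold change of 0.10 (SE 0.323). Peg3 had 16.97 and 24.5 CPM in shThoc5 and 12.1 and 21.2 CPM in shNT libraries, 0.26 (SE 0.338). Meg3, from 37 to 56 reads a library, and Peg3 thus had fold changes smaller than their errors. That of Igf2r, enriched in 3 immunoprecipitates as Meg3 was, was larger than its error, at −0.41 (SE 0.192). For Igf2r edgeR gave an unadjusted p of 0.0785 and an adjusted p of 0.9995, so no change was called.

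Grb10 had 177 and 230.04 CPM in shThoc5 and 168 and 206 CPM in shNT libraries, 0.07 (SE 0.206). Mest had 11.2 and 3.48 CPM in shThoc5 and 10.97 and 7.46 CPM in shNT libraries, −0.36 (SE 0.553). Within each of Meg3, Peg3, Grb10 and Mest, the libraries of replicate 2 lay on 1 side of those of replicate 1, higher for Peg3 and Grb10 and lower for Meg3 and Mest. Over all genes tested, 26.6% were higher and 27.8% lower in both libraries of replicate 2. H19 had 8 and 2 reads in shThoc5 and 4 and 4 in shNT libraries, and Dlk1 had 0 and 0 reads in shThoc5 and 1 and 1 in shNT libraries, so neither could show a difference at this depth.

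Of the 8 members tested, 3 were higher in both shThoc5 libraries than in both shNT libraries (16.2% of all genes were) and 1 was lower (16.4%). Their median log2 fold change was 0.18, beside 0.01 for all genes tested. Markers of other cell types also differed between these libraries: the 5 endothelial markers summed to 284 and 288 CPM in shThoc5 libraries, against 376 and 596 CPM in shNT libraries. The 4 fibroblast markers summed to 708 and 685 CPM in shThoc5 libraries, against 931 and 837 CPM in shNT libraries, although Pdgfra alone was higher in shThoc5 (414 and 377 CPM) than in shNT (348 and 304 CPM). The 4 macrophage markers summed to 2.38 and 2.40 CPM in shThoc5 libraries, against 1.57 and 1.57 CPM in shNT libraries. Ptprc and Adgre1 were at or near 0, and Csf1r overlapped between groups. The 7 smooth muscle markers summed to 1377 and 2256 CPM in shThoc5 libraries, against 1959 and 3971 CPM in shNT libraries, with overlap. Acta2 was lower in both shThoc5 libraries (799 and 1181 CPM) than in shNT (1232 and 2430 CPM). Myocd, near 0, was higher in both, and the other smooth muscle markers overlapped. The part of the cell mixture in the members' values was not tested.

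**Figure D4:**
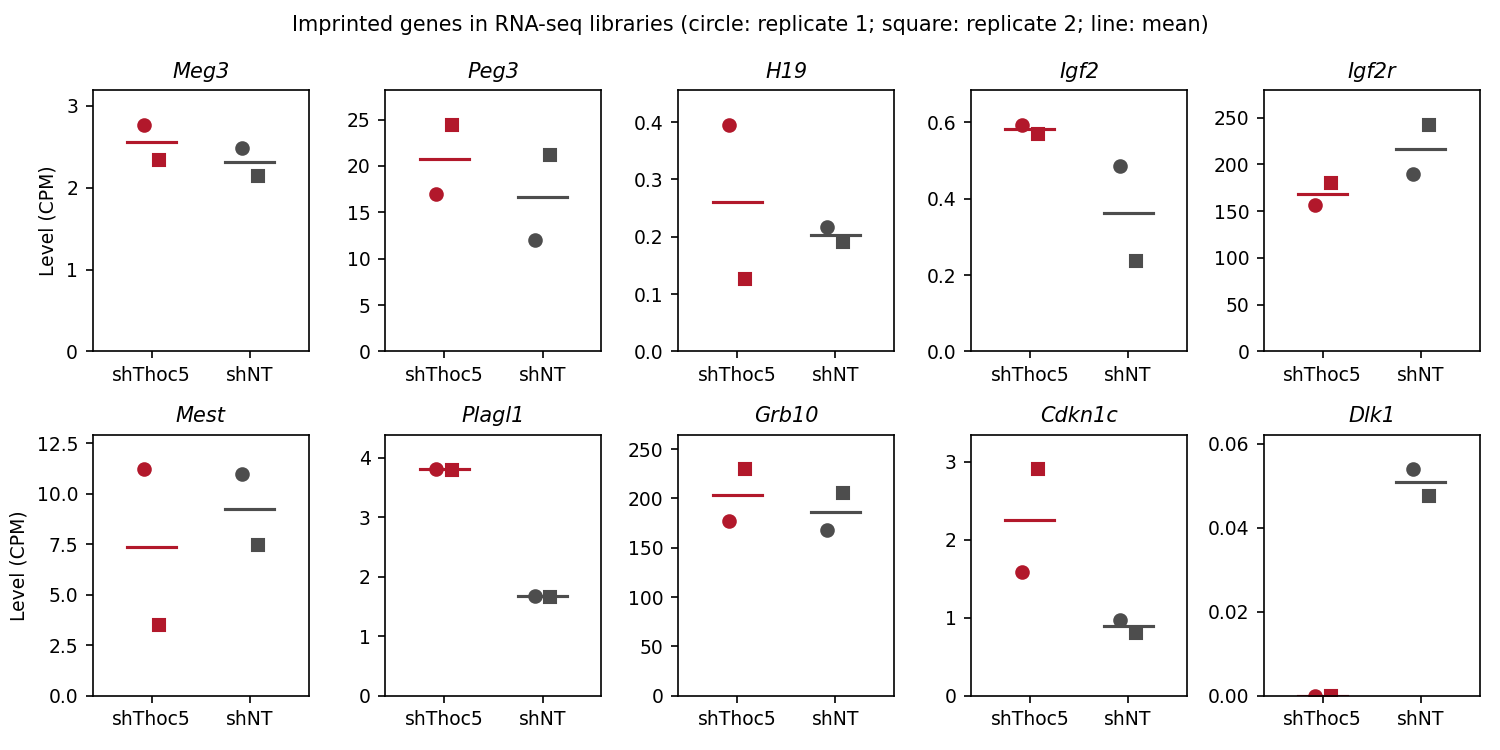
Level of each imprinted gene in CPM in the 2 shThoc5 libraries (red, left) and the 2 shNT libraries (grey, right), with circles for replicate 1, squares for replicate 2 and a line for the mean. Plagl1 and Cdkn1c lie higher in both shThoc5 libraries, at 3.81 and 3.79 CPM and at 1.58 and 2.91 CPM.

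Other genes of the same imprinted domains were read from a list of 30. After Thoc5 silencing 0 of the 13 tested passed the threshold, with 2 higher and 3 lower in both libraries, where 16.2% and 16.4% of all genes were. In RIP-seq, 1 of 16 listed genes was enriched with Thoc5 and 2 of 16 with Thoc2 at passage 10 (5.66% and 11.5% of all listed genes were). At passage 3, 7 and 4 of 19 were (20.8% and 16.1%). Both passage 3 counts take in Peg3os and Rtl1, whose spans overlap the members Peg3 and Meg3, so their reads cannot be told apart from those of the members. Kcnq1ot1, the long non-coding RNA that silences the Cdkn1c domain, had the highest mean log2 ratio among those listed in all 4 tables, at 1.65-fold (Thoc5) and 3.67-fold (Thoc2) over input at passage 10 and 31.1-fold and 27.7-fold at passage 3, from inputs of 21 and 18 reads; it is transcribed antisense within Kcnq1, so its reads are uncertain. Rian, a long non-coding RNA downstream of Meg3, was at 1.21-fold and 1.76-fold at passage 10 and at 3.82-fold and 2.34-fold at passage 3. The next by mean were Osbpl5, Begain and Mirg. Zim1, in the Peg3 domain and listed at passage 10 only, was above Kcnq1ot1 there, at 3.33-fold (Thoc5) and 5.31-fold (Thoc2) from 11 input reads, and was picked out after its values were seen. Begain, beside Dlk1, had the largest fold change after silencing, 1.27 on the log2 scale (SE 0.634), from 3 to 12 reads a library, followed by Peg3os at 0.55 and Slc22a18 at 0.44.

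Further genes described as partners of the network in the mouse were Gnas, Gatm, Sgce, Ndn, Slc38a4 and Dcn (6 in all). Enriched were 0 of 5 listed at passage 10, where 5.66% (Thoc5) and 11.5% (Thoc2) of all listed genes were. At passage 3 it was 0 of 6, where 20.8% and 16.1% were, and so few genes cannot be set apart from those shares. Gatm had 14 input reads and 0 with either antibody at passage 3, and was not listed at passage 10. The median log2 ratios of these genes were −0.30 (Thoc5) and −0.68 (Thoc2) at passage 10 and −1.05 and −1.24 at passage 3. For all genes they were 0.02, −0.03, 0.14 and −0.17 in the same order. Of the 5 tested after silencing 0 passed the threshold. Dcn, which encodes the matrix proteoglycan decorin and is also a fibroblast marker, had 291 and 306 CPM in shThoc5 libraries, against 580 and 528 CPM in shNT libraries, a log2 fold change of −0.94 (SE 0.154; edgeR adjusted p = 0.9995).

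Of 14 genes of the IGF pathway, 0 of the 12 tested passed the threshold after silencing. With Thoc5 1 and with Thoc2 4 of the 14 were enriched at passage 10, beside 5.66% and 11.5% of all listed genes, and 2 and 3 at passage 3, beside 20.8% and 16.1%. Irs2, an adaptor of the insulin and IGF receptors, was enriched in all 4, as 3.45% of genes listed in all 4 tables were. It was at 3.10-fold (Thoc5) and 2.62-fold (Thoc2) at passage 10. At passage 3 it was at 7.60-fold (3.32 to 17.8) and 12.3-fold (5.85 to 27.4), from 15 and 22 reads against 12 in the input. The receptors Insr and Igf1r were at 1.603-fold to 2.83-fold in every immunoprecipitate, and Igf2bp1 and Irs1 followed by mean. The binding protein Igfbp6 had the largest fold change after silencing, −1.01 on the log2 scale (SE 0.523), from 5 to 20 reads a library, followed by Irs2 at 0.83 and Igfbp5 at −0.60.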

How the data were processed

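The members and gene lists were chosen with earlier results of these data known. Per the submitters' processing notes, the build was mm9 and the tools included featureCounts, Subread and limma; their roles are not given in the sources used here. Per the labels' protocols, libraries were made with TruSeq RNA kits. The deposited tables hold read counts per gene, not normalized, for the 4 RNA-seq and 6 RIP-seq libraries. The deposited RIP-seq tables also hold a normalized signal, the authors' ratio of immunoprecipitate to input and, for selected genes, a score, the posterior probability of a second class; the ratio enters only as an alternative. The authors' comparison table gives per gene a length, a log2 fold change and a p-value, per the file headers.

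Counts of shThoc5 and shNT were compared with edgeR 4.0.16 in R 4.3.3 (TMM scaling, filterByExpr, quasi-likelihood test, Benjamini-Hochberg adjustment over all genes, threshold 0.05), with DESeq2 1.42.0 and limma-voom (limma 3.58.1) as alternatives. Others changed the scaling, filter, threshold or added CPM, took the replicate number as a block, or left out a library. The SE of an edgeR log2 fold change is the size of that change divided by the square root of the F statistic of its test. With no label of separate cultures, p-values cover only spread between these libraries, possibly technical. RIP-seq counts were scaled to CPM on library totals with Python 3.11.15, and ratios carry exact conditional binomial (Clopper-Pearson) intervals at 95%. The scripts were tested on simulated data. Of 26301 RNA-seq identifiers 24191, and of 15352 RIP-seq identifiers 14732, matched RefSeq symbols (GRCm38.p6), used for names, overlaps and sequences only. From each list, genes were named by the highest mean ratio over the 4 immunoprecipitates (at most 5) and the largest fold change after silencing (at most 3).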

Additional observations from a re-analysis of the deposited data

Results flagged for a closer look

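In each of the following, a ratio lay on opposite sides of 1 at the 2 passages with both counting intervals clear of 1. Each passage had 1 library of each kind, so the difference between passages was not tested. Meg3 was at 0.470-fold with Thoc5 over Thoc2 at passage 10 and 5.05-fold at passage 3. Peg3 was at 0.431-fold with Thoc5 over Thoc2 at passage 10 and 1.54-fold at passage 3, from 70 and 41 reads at passage 3. Both passage 3 values take in the library with Thoc5 by which Meg3 and Peg3 were chosen. H19 ran the other way, at 1.29-fold with Thoc5 over Thoc2 at passage 10 and 0.334-fold at passage 3. With Thoc2 over input, H19 was at 0.607-fold at passage 10 and 1.45-fold at passage 3. With Thoc5 over input, Grb10, the adaptor of insulin and IGF receptors, was at 1.07-fold at passage 10 and 0.836-fold at passage 3. Scaled to the median ratio of well-covered genes, 2 of these intervals spanned 1: Grb10 at passage 10 (1.02-fold, 0.988 to 1.06) and Peg3 with Thoc5 over Thoc2 at passage 3 (1.24-fold, 0.834 to 1.88).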

How the results depend on the processing

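After Thoc5 silencing, edgeR called 0 genes, against 48 by DESeq2 and 1 with no filter on low counts; leaving out 1 library in turn gave 0 to 47 genes, the 47 without shThoc5 replicate 1, and 0 to 0 members. With the replicate number as a block (replicate block), 511 genes and 1 member were called, Plagl1 with an edgeR adjusted p of 0.0483. Same-numbered libraries deviated together (correlation 0.677). The main axis of variation between the RNA-seq libraries, with 62.2% of the variance, separated replicate 1 from replicate 2 in both groups. The fits without the block count this shift as spread within a group. There were only 2 pairs, and no label says what the number marks. The block changed no other member's call. Leaving out a library turned the sign of 4 members, whose log2 fold changes ranged from −0.042 to 0.21 (Meg3), −0.11 to 0.75 (Peg3), −1.46 to 0.24 (Mest) and −0.13 to 0.25 (Grb10). The lone library of a group was there assumed to vary like the others. The count of members enriched moved to 1 (Thoc2, passage 3) and 0 (Thoc5, passage 10) by the authors' deposited ratio, and to 1 (Thoc2) and 0 (Thoc5) at passage 10 when a log2 ratio of 2 was asked for; asking 1.5-fold gave 3 for Thoc5 at passage 10. By the authors' deposited ratio, which is not scaled to library totals, the log2 value at passage 3 was −0.49 for Meg3 and −1.18 for Igf2r with Thoc2, and −1.27 for Igf2r with Thoc5. Other alternatives kept the counts within 1.5 times. Ratios between Thoc5 and Thoc2 under other denominators were added after seeing the data. Members with under 10 reads in a library, such as Dlk1 at passage 3, are limited by depth.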

Other observations

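Imprinted genes of domains that hold no member were read from a list of 33 for RNA not yet described. Ppp1r9a, which encodes the actin-binding protein neurabin, was enriched in all 4 immunoprecipitates, at 4.57-fold (Thoc5) and 8.76-fold (Thoc2) over input at passage 10 and 2.85-fold and 3.16-fold at passage 3, from inputs of 8 and 32 reads. Sfmbt2, a Polycomb-related gene, was at 1.27-fold (Thoc5) and 2.24-fold (Thoc2) at passage 10 and at 7.43-fold and 7.48-fold at passage 3, from 9 input reads there. Phactr2, Atp10a and Peg13 followed by mean. With Thoc5 4 and with Thoc2 3 of 23 listed genes were enriched at passage 10, beside 5.66% and 11.5% of all listed genes, and 4 and 3 of 25 at passage 3, beside 20.8% and 16.1%. After Thoc5 silencing 0 of the 23 tested were called by edgeR; the largest fold changes on the log2 scale were 0.66 for Ppp1r9a, −0.38 for Sfmbt2 and −0.35 for Pon3. The counts of Snrpn and Snurf, whose spans overlap, were equal in each of the 10 libraries.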
